A study of Mus musculus with 4 samples.

Results

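The genes described here are 10 genes of triglyceride storage and the lipid droplet, measured in mouse liver: Mogat1, Dgat1, Dgat2, Pnpla2, Pnpla3, Cidec, Plin2, Plin4, Cd36 and Pparg. They were taken by symbol, through the transcript accession of each array probe, and 13 probes matched them, out of 33767 probes that matched 23462 gene symbols. Mogat1, Pnpla3 and Plin2 had 2 probes each and the other 7 genes had 1. The genes were chosen by function with the signals and background flags of these same 4 arrays in view, so the differences below are descriptions and not independent evidence, and no test was run on them.

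Whole liver RNA of male mice fasted for 12 hours was hybridized to 4 one-color Agilent arrays, 1 array for each group. The groups were aging diabetic mice given astragalus polysaccharide (APS, from the root of a medicinal plant) together with metformin, aging diabetic mice given metformin (a glucose-lowering drug) alone, untreated aging diabetic mice, and naturally aging mice without drug treatment. The sample titles carry 60 days, without saying what the days count; strain, age, doses, the way diabetes was induced and the number of mice behind each RNA are not stated in the labels. With 1 array per group there are no replicates, so every difference is between 2 arrays and holds no spread between animals. The file headers place the 4 arrays on 1 slide, scanned once.

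Triglyceride is built by adding fatty acids to a glycerol backbone. The last acylation is made by the diacylglycerol acyltransferases Dgat1 and Dgat2, and Mogat1 supplies diacylglycerol from monoacylglycerol. The product is stored in droplets coated by perilipins such as Plin2 and Plin4 and enlarged by Cidec, which lets droplets fuse. Pnpla2 (adipose triglyceride lipase) starts the breakdown, and its relative Pnpla3 also sits on hepatocyte droplets. Cd36 takes up fatty acids, and the nuclear receptor Pparg, which is sparse in normal mouse liver and abundant in fat, is known to raise several of these genes in fatty liver.

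The promoters of the 4 genes whose signal ranged most between arrays, among those with a usable probe, are shown because these genes carry most of the differences below. Each runs from 250 bases before the transcription start through the first 50 bases after it, 5′ to 3′ on the gene's strand, from RefSeq on GRCm38.p6: chr1:78510810-78511109 on the plus strand for Mogat1, chr15:84167566-84167865 on the plus strand for Pnpla3, chr17:56109733-56110032 on the minus strand for Plin4, and chr6:113435711-113436010 on the minus strand for the first of 2 Cidec starts. Capitals mark matches to any of 5 motifs searched on both strands.
Mogat1: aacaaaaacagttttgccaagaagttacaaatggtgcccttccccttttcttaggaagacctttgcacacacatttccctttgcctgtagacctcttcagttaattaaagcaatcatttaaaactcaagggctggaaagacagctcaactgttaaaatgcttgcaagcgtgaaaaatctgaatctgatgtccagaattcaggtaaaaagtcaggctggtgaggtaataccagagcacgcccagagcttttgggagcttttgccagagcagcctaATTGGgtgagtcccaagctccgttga
Pnpla3: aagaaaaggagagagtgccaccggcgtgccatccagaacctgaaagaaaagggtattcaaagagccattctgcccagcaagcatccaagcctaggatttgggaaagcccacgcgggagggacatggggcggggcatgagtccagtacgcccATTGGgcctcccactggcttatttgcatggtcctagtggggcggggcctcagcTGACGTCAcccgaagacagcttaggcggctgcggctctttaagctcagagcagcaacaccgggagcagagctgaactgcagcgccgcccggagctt
Plin4: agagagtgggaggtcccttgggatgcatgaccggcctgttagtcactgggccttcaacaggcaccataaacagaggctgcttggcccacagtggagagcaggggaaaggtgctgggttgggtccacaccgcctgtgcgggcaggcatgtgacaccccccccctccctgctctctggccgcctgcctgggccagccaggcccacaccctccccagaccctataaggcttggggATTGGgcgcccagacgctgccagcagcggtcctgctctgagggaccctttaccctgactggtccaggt
Cidec: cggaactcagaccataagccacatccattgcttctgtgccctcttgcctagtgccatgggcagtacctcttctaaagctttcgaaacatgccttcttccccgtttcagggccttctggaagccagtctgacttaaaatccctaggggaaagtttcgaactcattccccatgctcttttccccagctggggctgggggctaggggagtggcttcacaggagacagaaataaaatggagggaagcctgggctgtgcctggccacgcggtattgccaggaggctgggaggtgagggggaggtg
The motifs were the nuclear receptor site AGGTCA, the direct repeat that PPAR and RXR pairs bind (2 copies of AGGTCA with any 1 base between them), the cyclic AMP response element TGACGTCA, the E-box CACGTG and the CCAAT box (the single site lies within the direct repeat). CCAAT, read as ATTGG on the other strand, was found in the Mogat1, Pnpla3 and Plin4 windows, and in 37.4% of 32851 promoter windows of the same length. TGACGTCA was found in the Pnpla3 window, from 46 bases before the start, and in 1.79% of all windows. The single AGGTCA was in 16.3% and the E-box in 7.15% of all windows, and neither was in these 4. Among the 11 windows that RefSeq gave for 8 of the 10 genes, AGGTCA matched in the Plin2 and Cd36 windows and in the first 2 of the 3 Pparg windows. The direct repeat was in 13 windows of all genes (0.0396%) and in none of these 11. A match is a description of letters and no site of binding, and no match says only that these letters are not in this window.

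Levels are given as log2 of the background-subtracted signal minus the log2 of that array's 75th percentile, so 0 is a signal equal to the 75th percentile. They compare arrays for 1 probe and not different probes. The error of a level is the one the image analysis gave for the spot, and genes past 1 log2 (2-fold) in size are called higher or lower below. If a probe failed the background criterion on 1 array of a pair, its fold is a lower bound, taken against the brighter of its own signal there and the dimmest signal that met the criterion. The 75th percentile corresponded to a signal of 3406 with APS plus metformin, 3589 with metformin, 3068 in aging diabetic and 2700 in natural aging liver. Between 56.8% and 63.1% of 59305 spots were well above background. Spots with an outlier flag, which marks an uneven spot or one that deviates from replicate spots of its probe, made up 2.18% to 5.35% of spots. Such flags hit 4 of the 13 probes, which left 7 of the 10 genes with a usable probe. Dgat2, Plin2 and Cd36 had none that was clean on all 4 arrays, and all other measured spots of the 10 genes except 1 of Mogat1 and 1 of Pnpla3 were well above background.

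The plot of the signal of every probe sets out these levels.

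**Figure D1:**
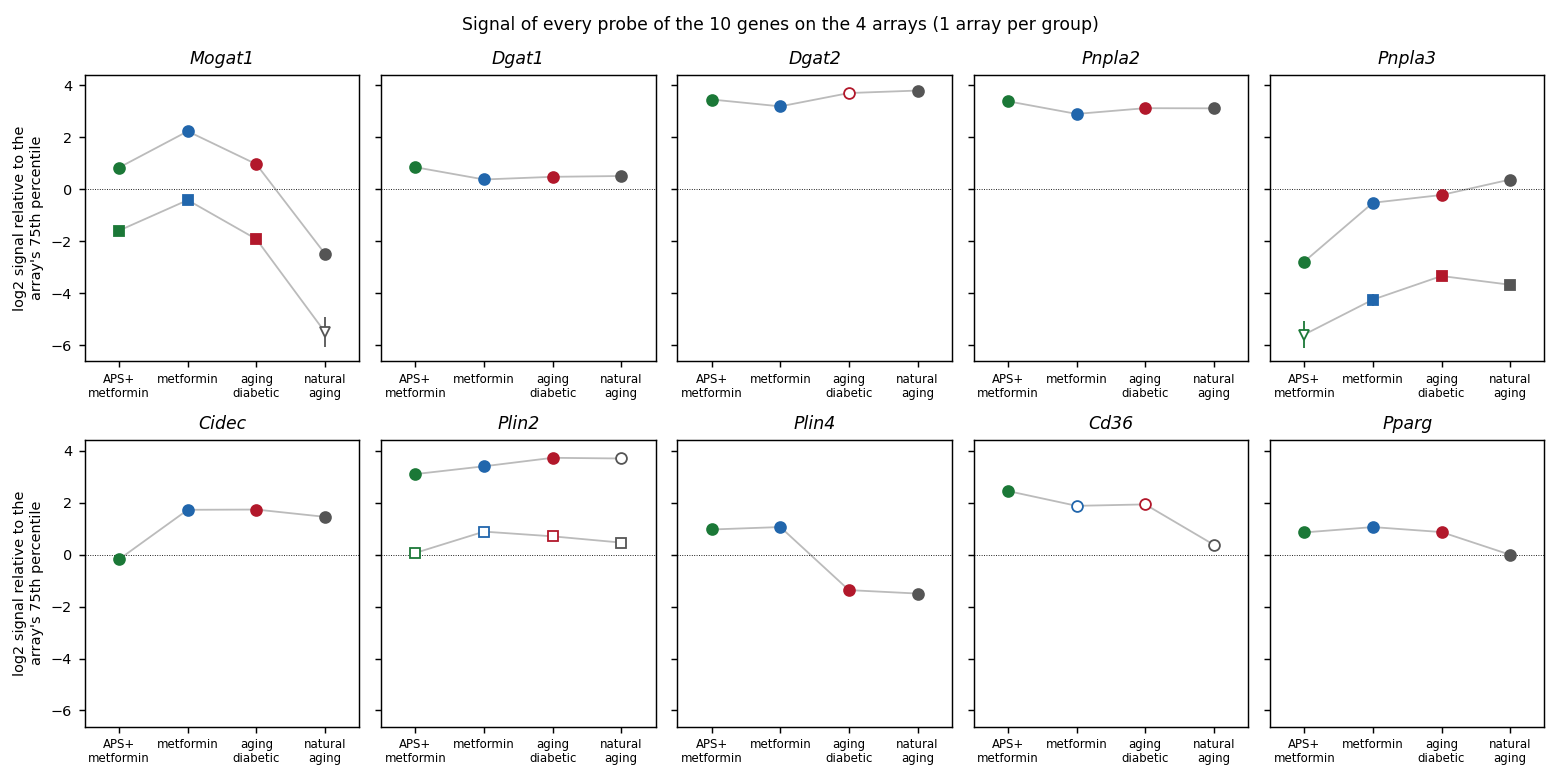
Level of every probe of the 10 genes (y axis, log2 signal relative to the array's 75th percentile) on the 4 arrays (x axis, 1 array per group). Circles are the brighter and squares the dimmer probe of a gene, open symbols have an outlier flag, open triangles were not well above background, and bars are the error of the spot. Mogat1 is lowest on the natural aging array (-2.48), Pnpla3 (-2.78) and Cidec (-0.18) on the APS plus metformin array, and Plin4 is near 1 on both arrays with metformin.

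Mogat1, the monoacylglycerol acyltransferase, was far brighter on the 3 diabetic arrays than on the natural aging array, and brightest with metformin alone. Its bright probe had levels of 0.84 on the APS plus metformin, 2.23 on the metformin, 0.97 on the aging diabetic and -2.48 on the natural aging array, each with an error of 0.12 to 0.14. As signal before scaling these were 6088, 16873, 5991 and 484.4 in the same order. The aging diabetic level was 10.9-fold above natural aging (3.44 ± 0.18 log2, error of measurement), which ranked 32 from the highest of 14458 genes compared. The metformin level was 2.41-fold above the aging diabetic level (1.27 ± 0.16) and 26.2-fold above natural aging. With APS plus metformin the level was 2.63-fold below metformin alone (-1.40 ± 0.16) and differed from the untreated aging diabetic array by -0.13 ± 0.16, less than the error.

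The other Mogat1 probe, a separate measurement of the same transcript accession, had levels of -1.59, -0.42 and -1.92 on the APS plus metformin, metformin and aging diabetic arrays, and in natural aging it did not exceed background clearly (-5.49). It was at least 6.06-fold higher on the aging diabetic than on the natural aging array. It was also 2.83-fold higher on the metformin than on the aging diabetic array, and 2.25-fold lower with APS plus metformin than with metformin alone. Both probes therefore gave the same order, except between the APS plus metformin and aging diabetic arrays, where the dimmer probe differed by 0.33 ± 0.17 and the brighter by -0.13.

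The diacylglycerol acyltransferases varied little. Dgat1 had levels of 0.85 on the APS plus metformin, 0.38 on the metformin, 0.48 on the aging diabetic and 0.51 on the natural aging array. Its widest difference was 0.47 ± 0.16 log2, for APS plus metformin against metformin, short of 2-fold. Dgat2, structurally unrelated to Dgat1 and a relative of Mogat1, had levels of 3.46, 3.19, 3.70 and 3.80 in the same order, with an outlier flag on the aging diabetic array. Among the unflagged arrays it was 1.52-fold lower with metformin than in natural aging (-0.61 ± 0.16), and 1.27-fold lower with APS plus metformin than in natural aging. Thus neither enzyme of the last step passed 2-fold between any pair of arrays measured without a flag.

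The lipase Pnpla2 had levels of 3.39 on the APS plus metformin, 2.90 on the metformin, 3.12 on the aging diabetic and 3.12 on the natural aging array. Its widest difference, 0.49 ± 0.16 log2 for APS plus metformin against metformin, was again short of 2-fold. Pnpla3 behaved differently, and its level was lowest on the APS plus metformin array. Its bright probe had levels of -2.78 ± 0.14 on the APS plus metformin, -0.52 on the metformin, -0.22 on the aging diabetic and 0.37 on the natural aging array. APS plus metformin was 5.90-fold below aging diabetic (-2.56 ± 0.18), which ranked 74 from the lowest of 14733 genes compared. It was 4.80-fold below metformin alone and 8.91-fold below natural aging. The metformin array lay 1.86-fold below natural aging (-0.89 ± 0.16) and the aging diabetic array 1.51-fold below it (-0.59 ± 0.16), both short of the threshold, although metformin passed it under median centring (-1.10).

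The dim Pnpla3 probe had levels of -4.25, -3.34 and -3.67 on the metformin, aging diabetic and natural aging arrays and was not well above background with APS plus metformin (-5.59). It gave a level at least 2.84-fold lower with APS plus metformin than in aging diabetic liver and at least 2.25-fold lower than in natural aging. Against metformin it gave at least 1.51-fold, under the threshold. For aging diabetic against natural aging this probe differed by 0.34 ± 0.26, opposite in sign to the bright probe, so no direction of Pnpla3 is given for that pair.

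Among the droplet proteins, Cidec was low on the APS plus metformin array alone, and Plin4 was high on both arrays of metformin-treated mice. Cidec had levels of -0.18 on the APS plus metformin, 1.72 on the metformin, 1.73 on the aging diabetic and 1.45 on the natural aging array. It was 3.77-fold lower with APS plus metformin than in aging diabetic liver (-1.91 ± 0.16, rank 235 from the lowest of 14733 genes). It was 3.74-fold lower than with metformin alone and 3.10-fold lower than in natural aging. Between the other 3 arrays its differences were 0.28 or less in size.

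Plin4, a perilipin most abundant in fat tissue and muscle, had levels of 0.97 on the APS plus metformin, 1.06 on the metformin, -1.37 on the aging diabetic and -1.50 on the natural aging array. Metformin was 5.38-fold above aging diabetic (2.43 ± 0.17, rank 161 from the highest of 15565 genes), and APS plus metformin was 5.04-fold above it (2.33 ± 0.17, rank 62 of 14733). These comparisons share the aging diabetic array, so they are not independent of each other. The arrays with metformin differed by 0.09 and the arrays without it by 0.13 log2, both less than the error of 0.16 to 0.17. Plin4 and Cidec each had a single probe.

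Plin2, the main droplet coat protein of hepatocytes, was bright and changed little. Its bright probe had levels of 3.10 on the APS plus metformin, 3.40 on the metformin, 3.72 on the aging diabetic and 3.70 on the natural aging array, the last with an outlier flag. APS plus metformin was 1.54-fold below aging diabetic (-0.63 ± 0.16), short of 2-fold. The second Plin2 probe was flagged on all 4 arrays, with levels of 0.06, 0.88, 0.70 and 0.46 in the same order, and was also lowest with APS plus metformin. The bright and the second probe were opposite in sign for metformin against aging diabetic (-0.33 and 0.18 log2). They were also opposite for metformin against natural aging (-0.30 and 0.42 log2).

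Cd36 and Pparg stood lowest on the natural aging array. Cd36 had levels of 2.45 on the APS plus metformin, 1.88 on the metformin, 1.93 on the aging diabetic and 0.38 on the natural aging array, but its single probe was flagged on every array except APS plus metformin. With the flagged spots kept, aging diabetic was 2.93-fold above natural aging (1.55 ± 0.18), metformin 2.82-fold and APS plus metformin 4.19-fold above it. No pair of arrays measured Cd36 without a flag. Pparg, measured without a flag, had levels of 0.85, 1.06, 0.87 and -0.01 in the same order. Metformin was 2.09-fold above natural aging (1.06 ± 0.16), just inside the threshold and at 0.85 under median centring, while aging diabetic (0.87 ± 0.16) and APS plus metformin (0.86 ± 0.16) lay just outside it. Between the diabetic arrays Pparg differed by 0.21 log2 at most.

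The counts past 2-fold among the 7 genes with a usable probe are given beside the share of all genes compared. In APS plus metformin against metformin, 3 were lower (Mogat1, Pnpla3 and Cidec) and none higher, where 12.5% of 15601 genes were lower and 2.42% higher (14.9% either way). In APS plus metformin against aging diabetic, Plin4 was higher and Pnpla3 and Cidec lower, where 4.42% of genes were higher and 6.96% lower (11.4% either way). In metformin against aging diabetic, Mogat1 and Plin4 were higher, where 12.0% were higher and 3.55% lower (15.5% either way). In aging diabetic against natural aging, Mogat1 alone was higher, where 8.24% were higher and 6.14% lower (14.4% either way). The genes were chosen with these values known, so nothing is read from these shares.

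Against natural aging, Mogat1, Plin4 and Pparg were higher with metformin, where 13.1% of genes were higher and 4.77% lower (17.9% either way), and Mogat1 and Plin4 were higher and Pnpla3 and Cidec lower with APS plus metformin, where 6.20% were higher and 6.73% lower (12.9% either way). The median difference of the 7 genes lay between -0.21 and 0.34 log2 in the 6 comparisons, and that of all genes between -0.04 and 0.02. The plot of differences shows the genes beside the spread of all genes.

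**Figure D2:**
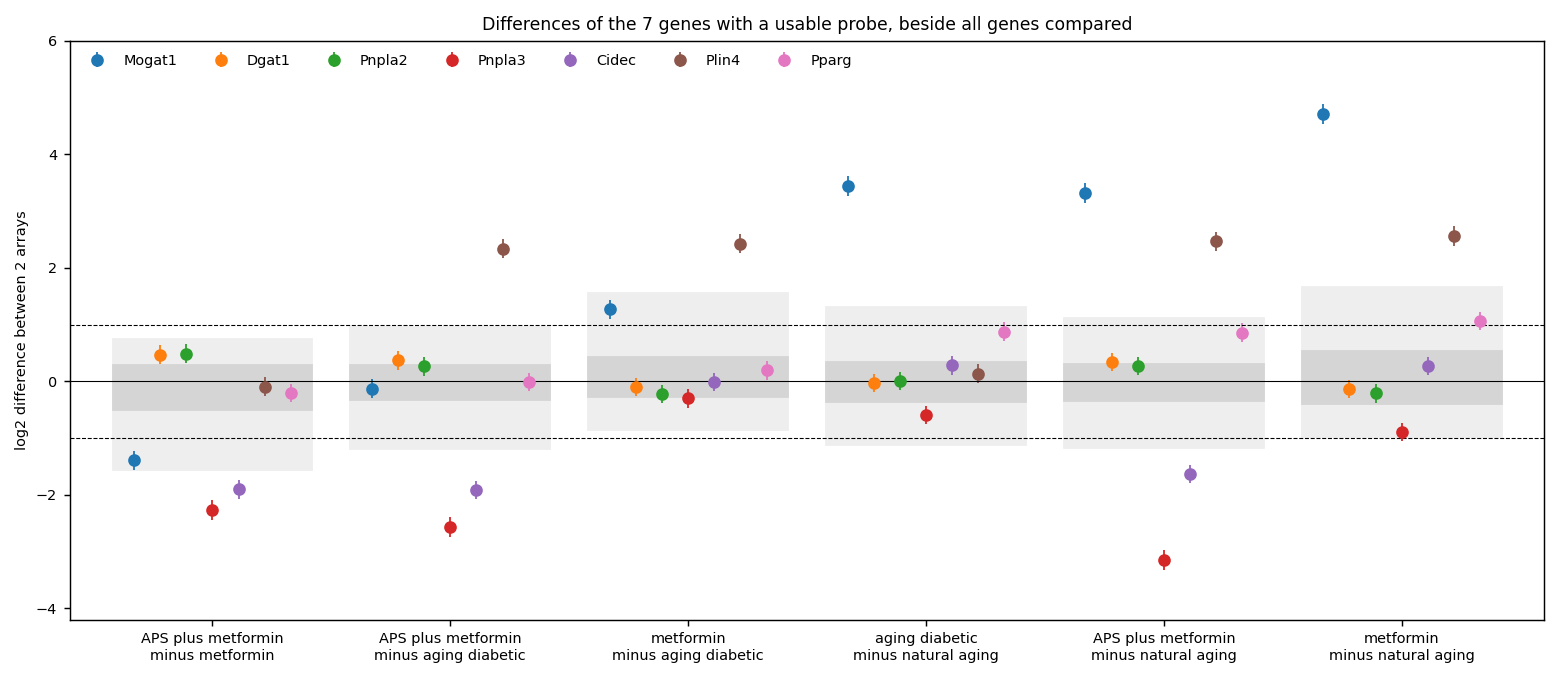
Difference between 2 arrays (y axis, log2) for the 7 genes with a usable probe in the 6 comparisons (x axis). Points are single differences, bars their error of measurement, dashed lines the 2-fold threshold, and the dark and light boxes hold the middle 50% and 90% of all genes compared. Mogat1 lies at 3.44 in aging diabetic minus natural aging, Pnpla3 at -2.56 and Plin4 at 2.33 in APS plus metformin minus aging diabetic.

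The other genes of the pathway were taken from 5 lists of 82 genes in all, of which 68 had a usable probe. In APS plus metformin against aging diabetic, 4 of 67 were higher and 2 lower, where 4.42% of all genes were higher and 6.96% lower. G0s2, an inhibitor of Pnpla2, had levels of -1.27 on the APS plus metformin, 1.85 on the metformin, 1.63 on the aging diabetic and 0.06 on the natural aging array. It was 7.46-fold lower with APS plus metformin than in aging diabetic liver (-2.90 ± 0.17) and 8.64-fold lower than with metformin alone. Ppargc1a, a coactivator of PPAR receptors, had levels of 2.66, 1.37, 0.97 and 1.12 in the same order, and its relative Ppargc1b had 0.62, -0.84, -1.17 and -1.54. Both were highest with APS plus metformin, 3.23-fold and 3.44-fold above aging diabetic, and a second probe of each differed the same way, at 2.71 and 2.49 log2 (that of Ppargc1b with a flagged spot).

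Also past 2-fold in that comparison were the carboxylesterase gene Ces2c (3.99-fold higher), the phosphatidate phosphatase gene Lpin1 (3.31-fold higher, with its other probes higher by 2.57 and, with flagged spots, 1.75 log2) and the fatty acid binding protein gene Fabp5 (2.97-fold lower). By list, these were 1 of 18 genes of glycerolipid synthesis, 2 of 12 of lipolysis, 1 of 11 of fatty acid uptake and binding, and 2 of 14 PPAR partners, with none of 12 further droplet protein genes. In APS plus metformin against metformin, 3 of 67 were higher and 5 lower, where 2.42% of all genes were higher and 12.5% lower. The higher ones were Ppargc1a, Ppargc1b and the acyltransferase gene Lclat1 (2.24-fold by its dimmer probe). The brighter Lclat1 probe, flagged on the metformin array, differed by 0.25 log2, short of 2-fold. The lower ones were G0s2, the droplet protein gene Cidea (4.23-fold), Fabp5 (3.21-fold), Hilpda (2.67-fold), which encodes another inhibitor of Pnpla2, and lipoprotein lipase, Lpl (2.52-fold).

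In metformin against aging diabetic, 5 of 67 pathway genes were higher and 1 lower, where 12.0% of all genes were higher and 3.55% lower. Cidea, a relative of Cidec, was 3.92-fold higher (1.97 ± 0.16), with levels of 1.38 on the metformin and -0.59 on the aging diabetic array. Mogat2, a second monoacylglycerol acyltransferase that is best known from the intestine, was 3.42-fold higher. Ces2c was 2.97-fold, the glycerol phosphate acyltransferase gene Gpat2 2.37-fold and the lysophosphatidate acyltransferase gene Agpat4 2.17-fold higher, and Lclat1 was 3.43-fold lower by its dimmer probe. The brighter Lclat1 probe, flagged on both of these arrays, differed by -0.16 log2, so its probes disagree. In aging diabetic against natural aging, 5 of 66 were higher and 3 lower, where 8.24% of all genes were higher and 6.14% lower. Mogat2 was at least 4.82-fold higher, since it was not well above background in natural aging (-4.88). G0s2 was 2.98-fold, Slc27a1, a fatty acid transporter, 2.66-fold and the phospholipase gene Ddhd2 2.63-fold higher. Not counted were the PPAR partner Rxrg and the carboxylesterase gene Ces1f, whose probes were flagged on arrays of treated mice. Without a flag on the aging diabetic and natural aging arrays, Rxrg differed by 2.27 and Ces1f by -1.03 log2 between them.

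Lpin3 was 2.15-fold higher by its brighter probe in that comparison, while its dimmer probe differed by -0.33 log2, so its probes disagree. Fabp5 was 3.16-fold, Ces2c 3.13-fold and the acyl-CoA synthetase gene Acsl4 2.35-fold lower in aging diabetic than in natural aging liver. A brighter Acsl4 probe, flagged on the aging diabetic array, differed by -0.73 log2, short of 2-fold, and a dimmer probe without flags by -1.23. Levels of Mogat2 were -1.39 on the APS plus metformin, -0.47 on the metformin and -2.25 on the aging diabetic array, so on these arrays both monoacylglycerol acyltransferase genes were brightest with metformin and dimmest in natural aging. Mogat2 differed from Mogat1 in that it was 0.86 log2 higher with APS plus metformin than in aging diabetic liver, short of 2-fold. Against natural aging, 7 of 67 pathway genes were higher and 6 lower with metformin, a balance that moved with the scaling, to 5 and 13 under median centring, 8 and 3 under cyclic loess and 8 and 2 with the percentile over probes well above background on all arrays. With APS plus metformin 5 were higher and 5 lower. The shares of all genes past 2-fold in these comparisons were 17.9% and 12.9%. The map of levels shows these genes.

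**Figure D3:**
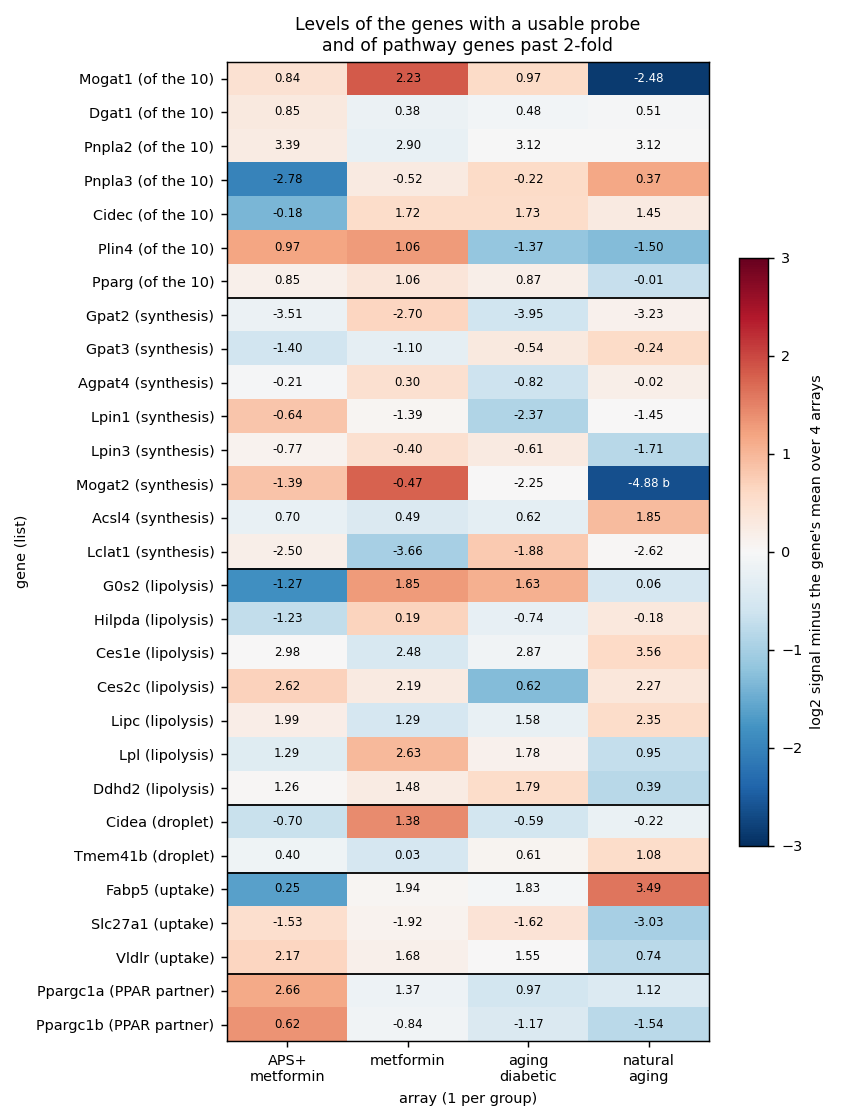
Levels on the 4 arrays (columns) of the 7 genes with a usable probe and of the 22 pathway genes that passed 2-fold in at least 1 comparison (rows), printed as log2 relative to the array's 75th percentile, where b marks a signal not well above background. Color is the level minus the gene's mean over the 4 arrays in log2. G0s2 (-1.27) and Pnpla3 (-2.78) are lowest and Ppargc1a (2.66) highest on the APS plus metformin array.

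For each gene that ranged over 2-fold, the 3 genes with the most similar pattern were sought among 11632 genes well above background on all 4 arrays, by the Euclidean distance between the 4 levels after each gene was centered on its mean. Pnpla3 lay near Rnase2a (0.40 log2) and Krt19 (0.52), a keratin of bile duct cells. Krt19 had levels of -2.47 on the APS plus metformin, -0.53 on the metformin, -0.31 on the aging diabetic and -0.04 on the natural aging array. For Mogat1 the nearest were the organic anion transporter gene Slc22a27 (0.37), Cstdc5 (0.71) and Bglap2 (0.73). Plin4 lay nearest to Chaf1a (0.31), a chromatin assembly gene, Id1 (0.46) and Lhx2 (0.49). Cidec lay nearest to Syngr1 (0.16), Exd1 (0.21) and the mucin gene Muc1 (0.23), and Pparg to Mta3, Llgl2 and Arhgef19 (0.03, 0.06 and 0.07). The nearest genes were picked by rank from 11632 genes over only 4 arrays, so the likeness is a description only.

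**Figure D4:**
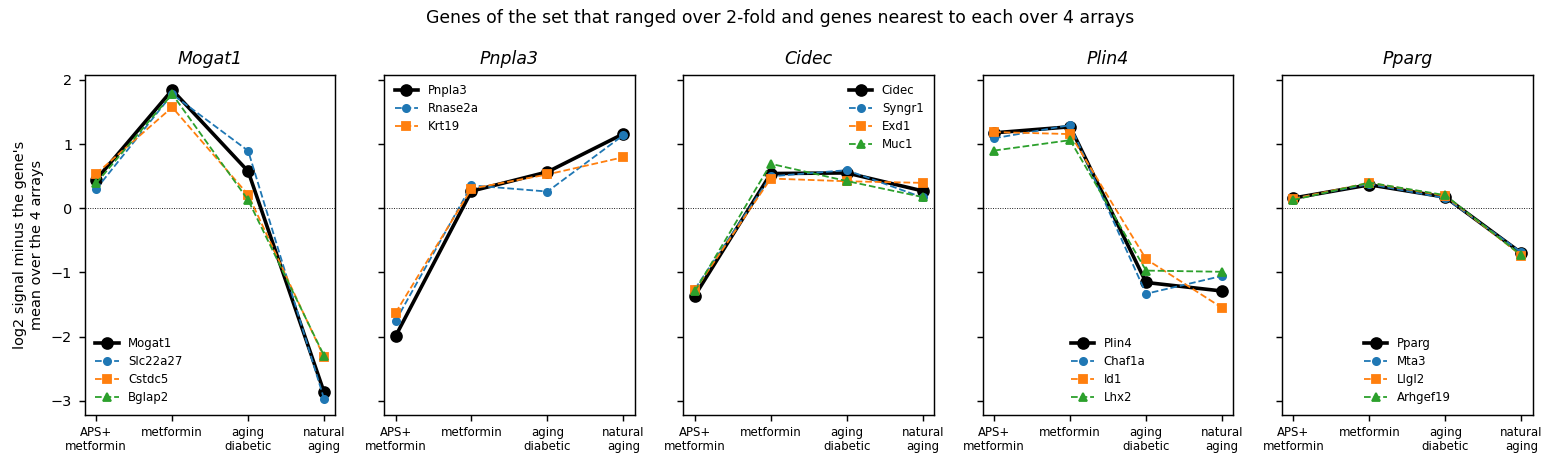
Level minus the gene's mean over the 4 arrays (y axis, log2) on the 4 arrays (x axis) for the 5 genes of the set that ranged over 2-fold (black) and the genes nearest to each that are reported (colored, dashed). Krt19 follows Pnpla3 at a distance of 0.52, lowest with APS plus metformin and highest in natural aging.

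Markers of other cell types were read because Cidec, Plin4, Cd36 and Pparg are also expressed by fat cells and Cd36 and Plin2 by macrophages. All 9 usable hepatocyte markers were well above background on all 4 arrays, and their summed signal, in units of each array's 75th percentile, was 136.5 on the APS plus metformin, 106.7 on the metformin, 133.6 on the aging diabetic and 160.5 on the natural aging array. Of 9 usable fat cell markers, 7 were well above background on every array, with sums of 4.81, 6.27, 5.77 and 4.56 in the same order. Most of each sum came from Adipoq, Adrb3 and Cidea. Left out was the bright marker Fabp4, since both its probes were flagged on the aging diabetic array. Its brighter probe had levels of 3.55, 3.15, 3.01 and 3.62, highest in natural aging, where the sum was lowest. The order of the sums therefore depends on leaving Fabp4 out. With it left out, the metformin sum was the highest only with Cidea counted (levels of -0.70, 1.38, -0.59 and -0.22). Cidea is also 1 of the droplet protein genes described above, so it is no separate marker here. The fat cell perilipin gene Plin1 was not well above background on any array, and adiponectin (Adipoq) had levels of 1.01, 0.71, 0.53 and 0.91. Past 2-fold between some arrays were adipsin (Cfd), with levels of -4.17, -0.38, -2.67 and -3.05, and Cidea, both highest with metformin, and the adrenergic receptor gene Adrb3, which was 5.23-fold lower with metformin than in aging diabetic liver and 2.66-fold higher in aging diabetic than in natural aging liver. Single fat cell markers thus went different ways.

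Of 11 usable macrophage markers, 10 were well above background on the APS plus metformin array, 11 on the metformin, 11 on the aging diabetic and 10 on the natural aging array. Their sums were 28.4, 44.3, 33.9 and 48.1, lowest with APS plus metformin. The sum hides members that went other ways. Against aging diabetic, Cx3cr1 was 12.3-fold, Gpnmb 6.81-fold, Ccr2 6.32-fold and Trem2 3.41-fold higher with metformin, and Marco 2.62-fold lower. Trem2 was also 8.54-fold and Gpnmb at least 9.84-fold higher with metformin than in natural aging liver, where the sum was highest. Endothelial sums were 20.5, 20.9, 17.3 and 24.6 over 7 markers. Stellate cell sums were 20.9, 21.9, 15.6 and 23.4 over 6 markers, 5 of them well above background on each array. Most of each stellate sum came from Dcn and Acta2, which stayed within 2-fold between all arrays. Pdgfrb was 4.68-fold lower in aging diabetic than in natural aging liver and 5.76-fold higher with metformin than in aging diabetic liver. Col1a1 was 3.76-fold higher with metformin than in aging diabetic liver, and 5.85-fold lower with APS plus metformin than with metformin alone. Pancreatic acinar markers had sums of 5.22, 20.5, 11.0 and 80.8 over 10 markers, with 4 of 10 well above background on the APS plus metformin array and all 10 on the others. Most of the APS plus metformin sum came from Cela1, which was 2.45-fold below natural aging. All 10 were past 2-fold lower with APS plus metformin than in natural aging liver, Ctrb1 308-fold and Prss2 at least 394-fold. On the metformin and aging diabetic arrays, 9 of 10 were past 2-fold lower than in natural aging. The part of fat cell, macrophage, endothelial, stellate or acinar RNA in the differences of the 10 genes was not tested. In whole liver RNA, fewer cells of a type and less RNA per cell cannot be told apart. The plot of marker sums sets the arrays side by side.

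**Figure D5:**
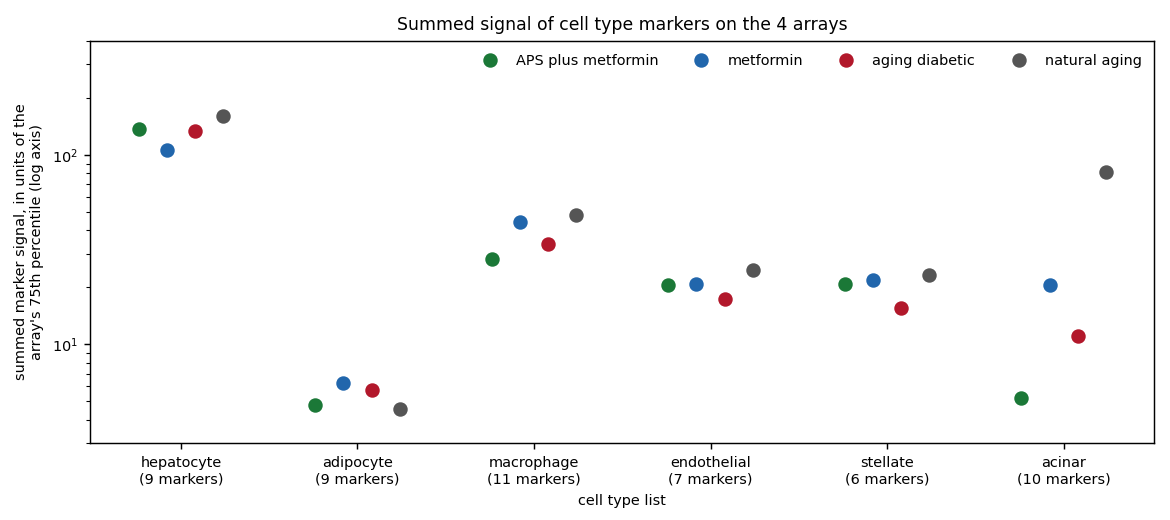
Summed signal of the usable markers of 6 cell types (y axis, log scale, in units of each array's 75th percentile), with 1 point for each of the 4 arrays. Acinar markers spread most, between 5.22 on the APS plus metformin array and 80.8 on the natural aging array, and hepatocyte markers lie between 106.7 and 160.5.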

How the data were processed

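Per the file headers, the deposited array files hold the intensity of each spot, background-subtracted and detrended within the array by Agilent Feature Extraction (11.5.1.1 in the headers, 10.7 in the submitters' processing notes), its error, and flags of 0 or 1, which are no score. Per the labels' protocols, the authors normalized in GeneSpring; the deposited series table holds log2 values with equal medians (7.84), by a method not stated, and served as an alternative. Its columns correlated across probes with their own arrays at 0.99895 or more.

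From the deposited intensity, log2 minus the array's 75th percentile was taken (Python 3.11.15, numpy 2.4.6, pandas 2.3.3). Spots of a probe were averaged, outlier spots were left out, and 51780 of 56605 probes remained. Accessions were matched without version to RefSeq symbols, and the probe with the highest mean signal stood for a gene, which left 22047 genes. Bounds used the dimmest signal that passed the background flag (log2 -4.84 with APS plus metformin, -4.95 with metformin, -4.75 in aging diabetic and -4.52 in natural aging liver). The error of a difference combines both spots' errors and covers measurement only; every probe of the 10 genes had 1 spot per array. The 9 alternatives used limma 3.58.1 (R 4.3.3) where they needed it. The normexp correction (offset 50) ran on median signals, which was settled after seeing the files. The procedure was run on simulated copies of the natural aging array, with planted changes past 2-fold and noise smaller than the spots' errors. That run checks the code only, and it holds no spread between animals. Named pathway genes were those past 2-fold, up to 4 per list, in the comparisons described gene by gene. For metformin and for APS plus metformin against natural aging, the text gives counts. The genes under other observations, such as Hsd17b13, were picked outside this rule. The genes, lists and motifs were chosen with earlier results of these data known. Of the nearest genes of Pnpla3, 1 is not reported here. No test was possible with 1 array per group, whose number limits precision.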

Additional observations from a re-analysis of the deposited data

How the results depend on the processing

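No paired analysis was possible because each group had 1 array, and no array could be left out. The 16 differences past 2-fold kept their sign in all 144 values under the 9 alternatives (quantile, cyclic loess, median centring, the percentile over probes well above background on all arrays, normexp, the authors' series table, averaged probes, outlier spots kept, no bounds), and 143 stayed past 2-fold. The exception was Pparg for metformin against natural aging, at 0.85 log2 after median centring, against 1.06. Among 234 values of the other differences, 1 gained a call, Pnpla3 in the same comparison and setting (-1.10 against -0.89), so 2 of the 7 genes were then higher and 1 lower, against 3 and 0. Pnpla3 for APS plus metformin against aging diabetic ranged from -2.60 to -2.32, Cidec from -1.98 to -1.91, Plin4 from 2.21 to 2.33, and Mogat1 for aging diabetic against natural aging from 3.26 to 3.53. Counts over both directions moved by over 1.5 times in 1 of 108 cases: with outlier spots kept, 2 of the 10 genes were past 2-fold in aging diabetic against natural aging, against 1, because Cd36 was then counted. Counts by direction moved that far in 10 of 216 cases. The 6 lower pathway genes in metformin against natural aging became 13 under median centring, 2 with the percentile over probes well above background on all arrays, and 3 under cyclic loess, normexp and the authors' series table. With outlier spots kept, lower pathway genes numbered 8, against 5, in APS plus metformin against metformin and 0, against 1, in metformin against aging diabetic (2 with averaged probes).

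The median difference over all genes lay between -0.18 and 0.17 log2 under the other scalings, against -0.04 to 0.02 as reported; the widest were cyclic loess for APS plus metformin against metformin and median centring for metformin against natural aging (-0.18 each). Among all genes past 2-fold, the share that was higher was 77.2% in metformin against aging diabetic, against 64.1% after median centring and 83.2% with the percentile over probes well above background on all arrays. It was 16.2% in APS plus metformin against metformin, against 28.1% and 10.4% under these settings, and 73.3% in metformin against natural aging, against 55.8% after median centring and 83.4%. Dim signals limit the second probe of Mogat1 to bounds against natural aging, and that of Pnpla3 to bounds where APS plus metformin is compared.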

Other observations

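Hsd17b13, a lipid droplet enzyme of hepatocytes, had 2 probes that differed in pattern. Its bright probe had levels of 4.07 on the APS plus metformin, 3.83 on the metformin, 3.87 on the aging diabetic and 4.38 on the natural aging array, with no pair of arrays past 2-fold. Its dim probe had levels of -0.96, -1.43, 1.07 and -1.47 in the same order, well above background throughout, and was 2.54 log2 higher on the aging diabetic than on the natural aging array and 2.50 log2 lower on the metformin than on the aging diabetic array. Lpin1 probes also differed for aging diabetic against natural aging, at -0.92 log2 by the probe that stood for the gene and -2.09 by another without flags on these arrays. Both genes were singled out after their values were seen.

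Vldlr, a lipoprotein receptor, was 2.71-fold higher with APS plus metformin than in natural aging liver (1.44 log2), and its other probe differed by 1.55. In the same comparison Fabp5 was 9.40-fold lower. The other higher pathway genes there differed by more than Vldlr. They were Mogat2 (at least 8.75-fold), Ppargc1b (4.45-fold), Ppargc1a (2.90-fold) and Slc27a1 (2.82-fold). Lpl had 3 probes, which were lower with APS plus metformin than with metformin by 1.34, 1.51 and 1.55 log2.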
